A study of Mus musculus with 26 samples.

Results

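The genes described here bring pyruvate into the mitochondrion, turn it into acetyl-CoA or oxaloacetate, make citrate from both, and carry the citrate out again. They were chosen by name: the pyruvate dehydrogenase kinases Pdk1, Pdk2, Pdk3 and Pdk4, the pyruvate dehydrogenase subunit gene Pdha1, the pyruvate carrier genes Mpc1 and Mpc2, and Pcx, Cs and Slc25a1. These 10 genes were read by 21 of the 56605 different probes on the array, and all 21 probes were well above background on all 26 arrays, so that 10 of 10 genes entered the tests among 25407 gene names.

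RNA of inguinal subcutaneous white adipose tissue (SCWAT) from single male C57BL6/J mice was hybridized to 1-colour arrays, with 1 array per mouse. Total ChREBP-KO mice (n = 7) are Mlxipl-null and lack both isoforms of ChREBP, a transcription factor that responds to glucose. ChREBPβ-KO mice (n = 5) carry a CRISPR/Cas9 deletion of the exon used only by the shorter isoform, ChREBPβ. The controls of each KO were WT mice of the same line, with n = 7 in both. The methods of the paper name WT littermates for the ChREBPβ-KO mice. Neither deletion is limited to adipose tissue. All 4 groups were on a regular diet and were killed after a 24 h fast and 18 h of refeeding with food and 20% glucose in the water. The labels used here give no age, and they do not say which litter a mouse came from.

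Glycolysis ends in pyruvate, which enters the mitochondrial matrix through a carrier made of MPC1 and MPC2. There the pyruvate dehydrogenase complex converts it to acetyl-CoA, and the 4 PDK kinases switch this complex off by phosphorylating its E1α subunit, the product of Pdha1. Pyruvate carboxylase, encoded by Pcx, makes oxaloacetate from pyruvate, and citrate synthase, encoded by Cs, joins oxaloacetate to acetyl-CoA. The citrate carrier, encoded by Slc25a1, exports citrate to the cytosol, where it is cleaved to supply acetyl-CoA for fatty acid synthesis. In adipose tissue after a carbohydrate meal, this route links glucose to lipogenesis.

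The median spot intensity per array was between 59 and 107.5, and between 70.2% and 76.5% of spots were well above background. Mlxipl, the gene of ChREBP, was lower at its brightest probe (A_55_P2119957) on every KO array than on every WT array of its line, by -2.29 on the log2 scale in total ChREBP-KO mice and -1.52 in ChREBPβ-KO mice. The probe A_55_P2728555 was also lower (-0.90 and -0.68, the latter with adjusted p = 0.054), and A_55_P2045158 did not pass in either line (-0.13 and 0.04). The 12 adipocyte markers were all measured, and their mean log2 intensity, called their score, did not overlap between WT (15.54 to 16.02) and KO (16.39 to 16.53) of the total line, whereas it was between 16.03 and 16.46 in the ChREBPβ line. The macrophage score was between 11.15 and 12.86 in WT of the total line, between 10.92 and 11.47 in total ChREBP-KO mice and between 11.34 and 13.34 in the ChREBPβ line. The lymphocyte score was between 10.63 and 12.29 in WT of the total line, between 7.98 and 10.94 in total ChREBP-KO mice and between 7.38 and 8.80 in the ChREBPβ line, and the skeletal muscle score ranged from 6.17 to 13.43 over all arrays. The thermogenic score, over 8 genes such as Ucp1, was between 11.67 and 13.99 in WT of the total line. In total ChREBP-KO mice it was between 10.77 and 11.76. In the ChREBPβ line it was between 9.74 and 11.52 in WT (mean 10.57) and between 9.77 and 10.47 in KO (mean 10.11). In total ChREBP-KO mice, 15 of 15 lymphocyte markers were lower than in WT, 6 of 8 thermogenic markers were lower and 1 was higher, 10 of 12 adipocyte markers were higher, 3 of 12 muscle markers were higher and 4 of 9 macrophage markers were lower. In ChREBPβ-KO mice, 0 markers of these lists passed the test.

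The start regions of 4 member genes are shown because ChREBP binds DNA at pairs of E-boxes, and 3 of these genes hold the largest falls in total ChREBP-KO mice (Pdk1, Pdha1 and Slc25a1) while Pdk2 has an E-box and did not pass the test. RefSeq gave 14 start regions for the 10 genes, each from 250 bases before the start site to 50 after it in GRCm38.p6, and the first of each gene is printed 5′ to 3′ on the strand of the gene, with E-boxes (CACGTG, the same on both strands) in capitals.
Pdk1 chr2:71872974-71873273 (plus strand): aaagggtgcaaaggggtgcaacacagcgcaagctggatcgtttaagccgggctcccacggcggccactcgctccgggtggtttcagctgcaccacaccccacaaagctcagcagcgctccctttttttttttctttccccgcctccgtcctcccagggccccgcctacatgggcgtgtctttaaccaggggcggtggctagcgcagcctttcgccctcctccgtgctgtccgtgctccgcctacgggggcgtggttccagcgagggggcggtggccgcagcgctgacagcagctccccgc
Pdha1 chrX:160138381-160138680 (minus strand): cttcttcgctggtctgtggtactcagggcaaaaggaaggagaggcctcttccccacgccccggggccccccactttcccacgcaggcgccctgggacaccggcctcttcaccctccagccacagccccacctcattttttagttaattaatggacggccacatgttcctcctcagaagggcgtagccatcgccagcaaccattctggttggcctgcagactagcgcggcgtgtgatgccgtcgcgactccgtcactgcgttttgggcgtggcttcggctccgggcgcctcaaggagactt
Slc25a1 chr16:17928170-17928469 (minus strand): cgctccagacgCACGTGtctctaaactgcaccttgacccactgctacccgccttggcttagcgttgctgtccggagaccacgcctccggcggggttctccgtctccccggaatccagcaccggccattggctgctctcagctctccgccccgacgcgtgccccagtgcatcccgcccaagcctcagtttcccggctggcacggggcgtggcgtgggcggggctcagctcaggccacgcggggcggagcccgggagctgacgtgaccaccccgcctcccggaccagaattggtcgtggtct
Pdk2 chr11:95041322-95041621 (minus strand): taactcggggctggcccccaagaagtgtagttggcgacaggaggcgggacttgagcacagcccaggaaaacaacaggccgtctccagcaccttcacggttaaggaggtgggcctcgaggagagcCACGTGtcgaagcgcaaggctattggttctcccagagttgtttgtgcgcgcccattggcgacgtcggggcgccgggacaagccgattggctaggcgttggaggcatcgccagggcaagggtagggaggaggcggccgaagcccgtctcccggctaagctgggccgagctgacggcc
An E-box was found in the first start region of Slc25a1 (-239 from the start site), Pcx (-248) and Pdk2 (-126), which makes 3 of 14 member regions, and in 7.15% of 32851 start regions of all genes. The consensus for the pair of E-boxes, the ChoRE consensus, had 0 matches in the member regions and was found in 0.119% of all. The GC box (GGGCGG, both strands) had 4 matches in the Slc25a1 region, 2 in Pdk1 and 0 in Pdha1 and Pdk2, and 35.7% of all regions held at least 1. The CCAAT box (CCAAT, both strands) had 3 matches in Pdk2, 2 in Slc25a1 and 0 in Pdk1 and Pdha1, and 37.4% of all regions held at least 1. These are matches of letters only.

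In total ChREBP-KO mice, 7 of the 10 genes were lower than in WT mice of that line and 0 were higher. The largest falls were in Pdk1, to 23.7% of the WT level, in Slc25a1, to 38.6%, and in Pdha1, to 39.2%. Mpc1, Pcx, Pdk3 and Mpc2 were also lower, at 60.7% to 77.7% of WT, whereas Cs, Pdk2 and Pdk4 did not pass the test. Over all 25407 genes, 20.1% were called lower, 25.8% higher and 45.8% either way at an adjusted p of 0.05. The median log2 fold change was -0.42 over the 10 genes and 0.05 over all genes. KO and WT arrays did not overlap for 4 of 10 members (Pdk1, Pdha1, Pcx and Slc25a1), compared with 14.8% of all genes. In RNA of a whole tissue, fewer cells of a type and less RNA per cell cannot be told apart.

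In ChREBPβ-KO mice, 0 of the 10 genes passed the test in limma, against 0.0512% of all genes (13 of 25407). At an unadjusted p of 0.05 there were 6 of 10, all with a lower level in KO, against 7.80% of all genes. These were Slc25a1, Mpc2, Mpc1, Pcx, Pdk1 and Pdha1. For Pdha1 the exact permutation p was 0.105. The median log2 fold change was -0.28 over the members and -0.0016 over all genes. The 6 genes are not separate observations, since KO replicate 6 was the lowest of its group for each of them. With group means subtracted, r was 0.843 between Mpc1 and Mpc2 and 0.840 between Mpc2 and Slc25a1. It was 0.823 between Pdha1 and Pcx and 0.211 between Pdk1 and Mpc1. At the brightest probes, KO and WT arrays overlapped for all 10 members, and 0.366% of all genes had no overlap.

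**Figure D1:**
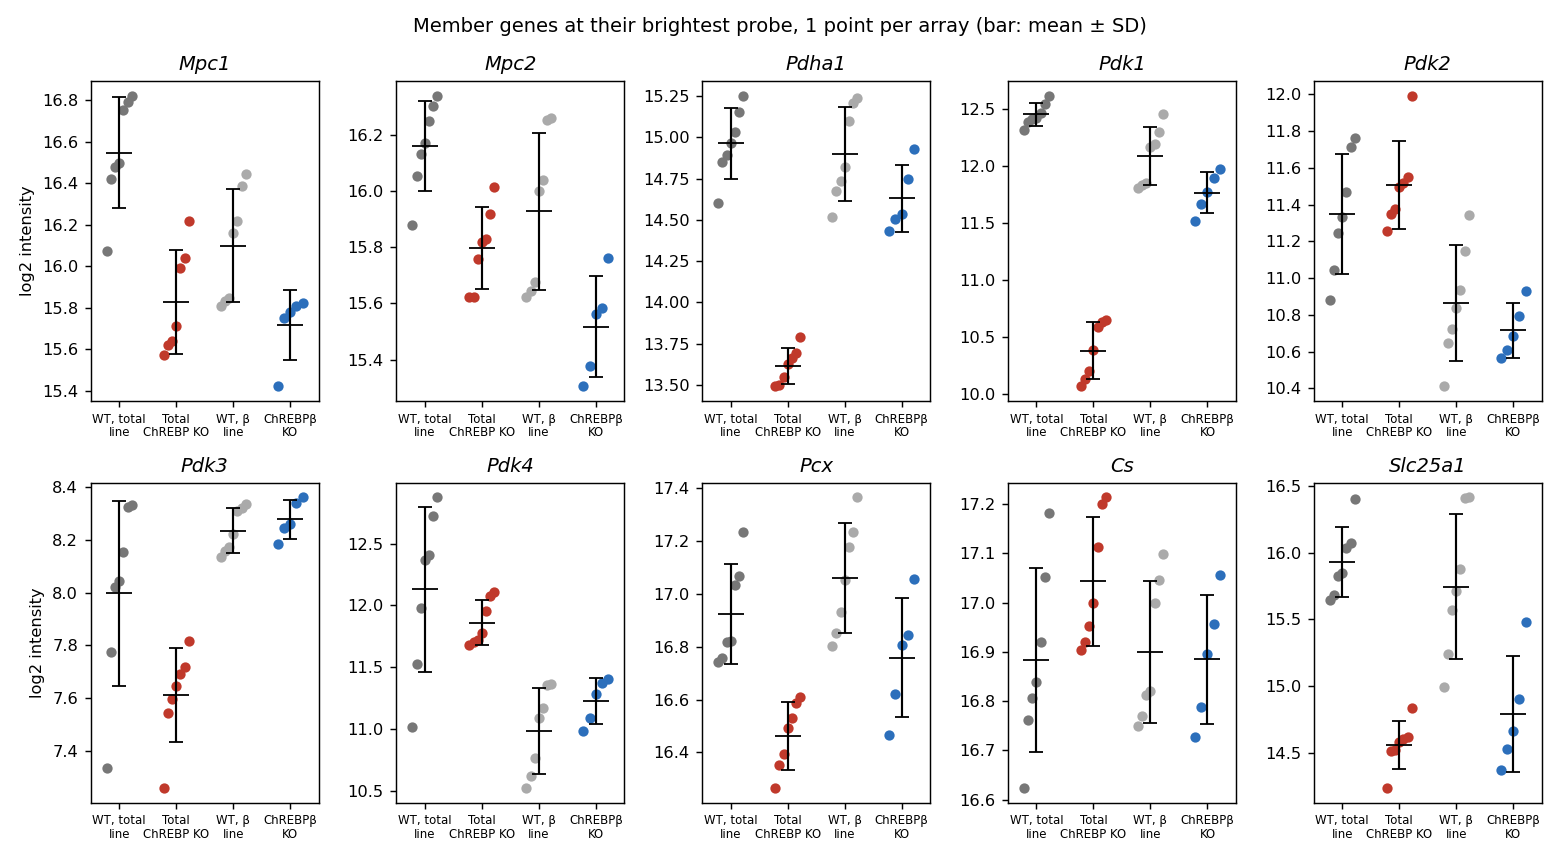
Log2 intensity of each member at its brightest probe, with 1 point per array, for WT and KO of the total line and of the ChREBPβ line. Black bars are mean ± SD (n = 7, 7, 7 and 5). All total ChREBP-KO arrays lie below all other arrays for Pdk1 and Pdha1, and the vertical axes differ between genes and do not start at 0.

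Pyruvate enters through the carrier made of both MPC subunits, and both genes were lower in total ChREBP-KO mice. Some slides held arrays of different groups, but none held both WT and KO of the total line. With slide as a fixed block, which therefore links these groups only through the ChREBPβ line, neither gene passed (Mpc1 -0.59, adjusted p = 0.0859, and Mpc2 -0.19, adjusted p = 0.525). Mpc1 (A_55_P2008422, mm9 chromosome 17, 8490447 to 8490506) had a log2 intensity of 16.07 (lowest), 16.50 (median) and 16.82 (highest) in WT of the total line, against 15.57, 15.71 and 16.22 in total ChREBP-KO mice. The log2 fold change was -0.72 (SE 0.13, adjusted p = 6.78e-05). The groups overlapped through 1 array of each, WT replicate 1 (16.07) and KO replicate 7 (16.22). In the ChREBPβ line, the 5 KO arrays of Mpc1 were at 15.81, 15.75, 15.78, 15.82 and 15.42, and WT spanned 15.81 to 16.44 with a median of 16.16. The difference of -0.38 (SE 0.14) did not pass (adjusted p = 0.462, exact permutation p = 0.0126).

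Mpc2 (A_51_P103975, chromosome 1, 167409699 to 167411082) was lower in total ChREBP-KO mice and did not pass in ChREBPβ-KO mice. Its log2 intensity was 15.88 (lowest), 16.17 (median) and 16.34 (highest) in WT of the total line and 15.62, 15.82 and 16.01 in KO, a fold change of -0.36 (SE 0.10, adjusted p = 0.00606). The ChREBPβ-KO arrays were at 15.76, 15.38, 15.58, 15.56 and 15.30, and their WT spanned 15.62 to 16.26. The KO arrays of that line lay at or below the lower part of the WT range, but the change of -0.41 (SE 0.11) did not pass (adjusted p = 0.268, exact permutation p = 0.0202). The difference between both KO effects was -0.05 with a 95% interval from -0.37 to 0.27.

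Additional probes of the carrier genes moved the same way. At the dimmer Mpc1 probe A_66_P126427 (8481522 to 8481581), which lies before the others in the direction of transcription, the log2 fold change was -1.48 (SE 0.21) in total ChREBP-KO mice, larger in size than at the other 2 Mpc1 probes (-0.72 and -0.78). In ChREBPβ-KO mice it was -0.83 (SE 0.23), with every KO array below every WT array but an adjusted p of 0.266. The second Mpc2 probe, A_55_P2934707 (167393628 to 167393686), had a difference of -0.51 (SE 0.13) in the total line and -0.54 (SE 0.15) in the ChREBPβ line, where the KO arrays again lay below all WT arrays (adjusted p = 0.266).

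Pdha1, which encodes the subunit that the PDK kinases phosphorylate, separated total ChREBP-KO mice from all other mice at the brighter of its probes. At its brightest probe (A_55_P2835362, chromosome X, 156560573 to 156560632, minus strand), WT of the total line had a log2 intensity of 14.60 (lowest), 14.96 (median) and 15.25 (highest). Total ChREBP-KO arrays were at 13.49, 13.63 and 13.79, which is a change of -1.35 (SE 0.11, adjusted p = 6.25e-10, exact permutation p = 0.000583). The highest KO array lay below the lowest of the 19 other arrays (14.43). In ChREBPβ-KO mice the arrays were at 14.93, 14.50, 14.75, 14.54 and 14.43, within or just below the WT range of 14.52 to 15.24. That change was -0.27 (SE 0.12, adjusted p = 0.588, exact permutation p = 0.105). It was smaller in size than the fall in total ChREBP-KO mice by 1.08 (SE 0.16, adjusted p = 4.94e-05 for the difference). A second probe, A_55_P2717707 (156574846 to 156574905), changed by -0.93 (SE 0.11) and -0.19 (SE 0.13).

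Among the kinases, Pdk1 showed the largest fall of the 10 genes and Pdk3 a small one, while Pdk2 and Pdk4 did not pass the test in either KO. At the brightest Pdk1 probe (A_55_P2826334, chromosome 2, 71739926 to 71739985), WT of the total line was at 12.32 (lowest), 12.42 (median) and 12.62 (highest) and total ChREBP-KO at 10.06, 10.38 and 10.65. The log2 fold change was -2.08 (SE 0.11, adjusted p = 1.85e-13, exact permutation p = 0.000583, the smallest that 3432 regroupings can give). All 7 KO arrays lay below the lowest of the 19 other arrays (11.52). The ChREBPβ-KO arrays were at 11.97, 11.67, 11.90, 11.77 and 11.52, overlapping a WT range of 11.81 to 12.46. The change there was -0.32 (SE 0.12, adjusted p = 0.469, exact permutation p = 0.0417). It differed from the total ChREBP-KO effect by 1.76 (SE 0.16, adjusted p = 3.66e-08).

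The 5 Pdk1 probes did not give 1 answer. Of these, 4 were lower in total ChREBP-KO mice, with changes of -2.08, -1.97, -1.30 and -0.98. Probe A_55_P2907580 (71713523 to 71713582), which lies before the other 4 in the direction of transcription, changed by -0.04 (SE 0.09, adjusted p = 0.75) with a 95% interval from -0.23 to 0.15. Its mean log2 intensity in WT of the total line was 7.71, against 12.45 at the brightest probe. The probes that changed by -1.30 and -0.98 were at 6.96 and 7.89 in the same mice. The part of low intensity in these differences was not tested. At A_55_P2590803 (71721635 to 71721929), every KO array of both lines lay below all WT arrays of its line, with a change of -0.39 (SE 0.12, adjusted p = 0.326) in ChREBPβ-KO mice.

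Pdk3 (A_51_P392293, chromosome X, 91009951 to 91010010, minus strand) was at 7.34 (lowest), 8.04 (median) and 8.33 (highest) in WT of the total line and at 7.26, 7.65 and 7.82 in KO. The groups overlapped, mainly through WT replicate 4 at the minimum, and the log2 fold change was -0.39 (SE 0.11, adjusted p = 0.00587). Its second probe (A_52_P99622) changed by -0.29 (SE 0.12) and missed the threshold (adjusted p = 0.0513). In the ChREBPβ line all 12 arrays lay between 8.13 and 8.36, with a difference of 0.04 (SE 0.12) between KO and WT.

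Pdk4, the kinase that rises with fasting in many tissues, was spread widely in WT of the total line, from 11.02 to 12.87 with a median of 12.37 (A_51_P350453, chromosome 6, 5433441 to 5433500, minus strand). Total ChREBP-KO arrays fell inside this range, at 11.68 (lowest), 11.78 (median) and 12.11 (highest). The log2 fold change of -0.27 (SE 0.21) did not pass (adjusted p = 0.305). Among 26 fits that left out 1 array, 25 did not pass either. The fit without WT replicate 1, the lowest WT array, gave -0.45 (adjusted p = 0.0375). ChREBPβ-KO arrays were at 11.08, 11.41, 10.98, 11.37 and 11.28, inside or just above a WT range of 10.52 to 11.36, with a difference of 0.24 (95% interval from -0.23 to 0.71). Pdk2 (A_55_P2011802, chromosome 11, 94887669 to 94887728, minus strand) ranged from 10.88 to 11.76 among WT mice of the total line and from 11.26 to 11.99 among KO, with a fold change of 0.16 (95% interval from -0.13 to 0.45). It changed by -0.15 (95% interval from -0.47 to 0.17) in ChREBPβ-KO mice.

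Pcx, whose enzyme supplies oxaloacetate, was lower in total ChREBP-KO mice by less than Pdk1, Pdha1 or Slc25a1. Its probe (A_55_P2008599, chromosome 19, 4621610 to 4621669) was at 16.74 (lowest), 16.82 (median) and 17.24 (highest) in WT and 16.27, 16.49 and 16.61 in KO, without overlap. The log2 fold change was -0.46 (SE 0.10, adjusted p = 0.000468, exact permutation p = 0.000583). With slide as a fixed block, which links WT and KO of this line only through the ChREBPβ line, it was -0.43 and did not pass (adjusted p = 0.0671). The ChREBPβ-KO arrays were at 17.06, 16.81, 16.84, 16.62 and 16.47 and overlapped a WT range of 16.80 to 17.37. This difference was -0.30 (SE 0.11, adjusted p = 0.451, exact permutation p = 0.0429).

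Cs, the first enzyme of the citric acid cycle, did not follow the genes above. Its brightest probe (A_52_P182659, chromosome 10, 127799428 to 127799487) was at 16.62 (lowest), 16.84 (median) and 17.18 (highest) in WT of the total line and 16.90, 17.00 and 17.21 in KO. The groups overlapped, and the log2 fold change was 0.16 with a 95% interval from -0.01 to 0.33 (adjusted p = 0.115). Of 26 fits that left out 1 array, 25 did not pass either. The fit without WT replicate 4, the highest WT array, gave 0.21 (adjusted p = 0.031). In ChREBPβ-KO mice the difference was -0.01 (95% interval from -0.20 to 0.17). The second Cs probe (A_51_P390260) gave 0.12 and -0.18, and neither passed.

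Slc25a1, the citrate carrier gene, had the largest change of the 10 genes in ChREBPβ-KO mice. At its brightest probe (A_66_P130241, chromosome 16, 17925661 to 17925720, minus strand), WT of the total line was at 15.64 (lowest), 15.85 (median) and 16.41 (highest) and total ChREBP-KO at 14.24, 14.58 and 14.83, without overlap. The log2 fold change was -1.37 (SE 0.19, adjusted p = 2.87e-06, exact permutation p = 0.000583). In the ChREBPβ line, KO arrays were at 15.48, 14.53, 14.90, 14.66 and 14.37, and WT arrays at 14.99 (lowest), 15.71 (median) and 16.42 (highest). Of the KO arrays, 4 lay below every WT array and KO replicate 1 lay inside the WT range. The same KO array was also the highest of its group for Pdk1, Pdk2, Pdha1, Mpc2 and Pcx, and KO replicate 6 was the lowest for these genes, for Mpc1 and for Slc25a1.

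The change of Slc25a1 in ChREBPβ-KO mice was -0.96 (SE 0.21), to 51.5% of WT, with an exact permutation p of 0.0114 and an adjusted p of 0.113 in limma. Of 26 fits that left out 1 array, 24 did not pass, with adjusted p-values of up to 0.531. The 2 that passed left out the highest KO array, replicate 1 (-1.13, adjusted p = 0.0296), or the lowest WT array, replicate 7 (-1.08, adjusted p = 0.0196). It did not pass in any of the 18 other alternatives, with values from -1.08 to -0.77. WT replicates 4 and 8, the highest for Slc25a1 (16.41 and 16.42), had the highest thermogenic scores of their group (11.25 and 11.52). WT replicate 7, the lowest for Slc25a1 (14.99), had the lowest score (9.74). KO replicate 5 had the highest KO score (10.47), with Slc25a1 at 14.66. The part of tissue mix in this change was not tested beyond the fits with cell type scores. A second probe, A_66_P108940 (17927280 to 17927339), gave -1.66 (SE 0.21) in the total line. In the ChREBPβ line it gave -0.99 (SE 0.23, adjusted p = 0.186). The difference between both KO effects was 0.42 at the first probe, with a 95% interval from -0.17 to 1.00 (adjusted p = 0.313).

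**Figure D2:**
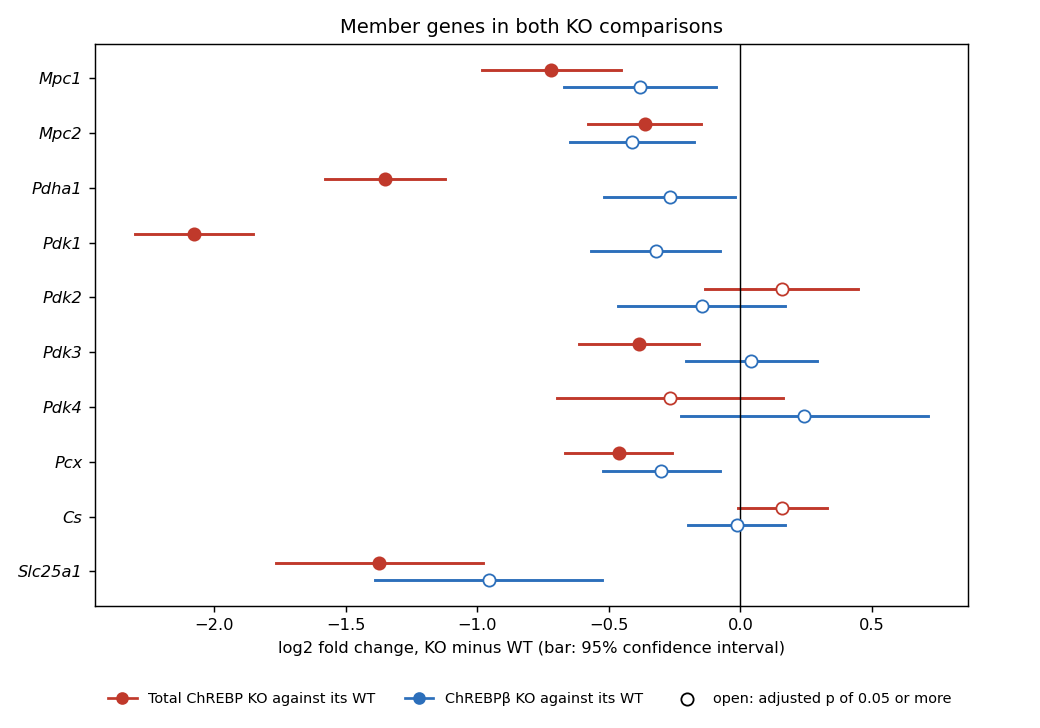
Log2 fold change of KO against WT for each member at its brightest probe, with 95% confidence intervals from limma, in total ChREBP-KO mice (red) and ChREBPβ-KO mice (blue). Filled points passed an adjusted p of 0.05, which 7 red points and 0 blue points did, and the intervals of both KOs do not meet for Pdk1 and Pdha1.

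**Figure D3:**
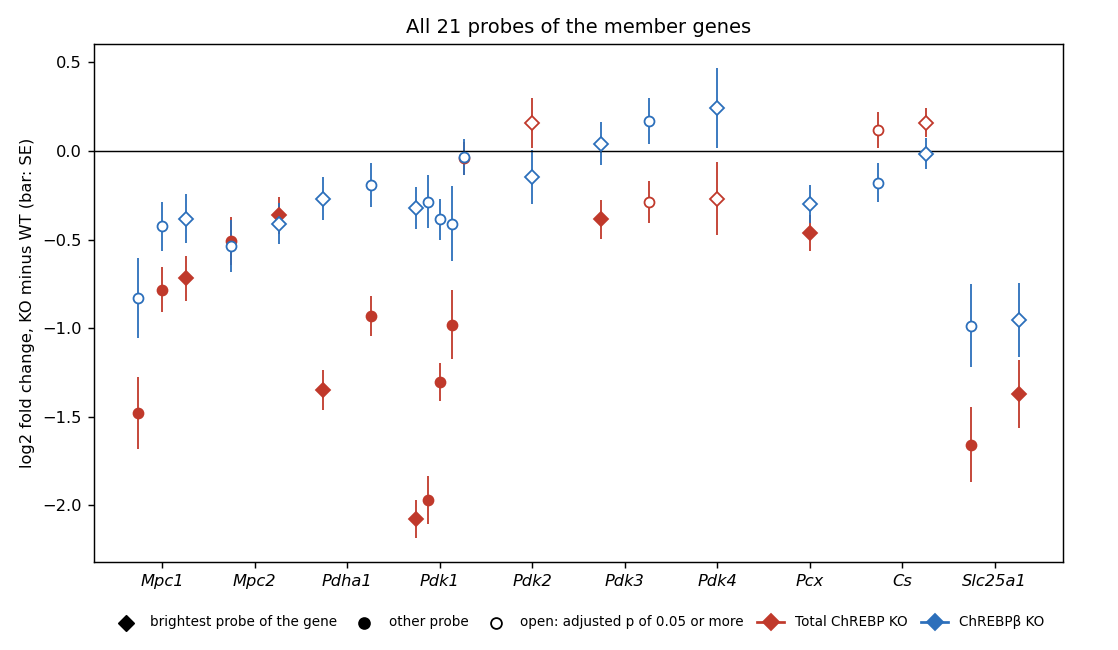
Log2 fold change (± SE) at all 21 probes of the members in total ChREBP-KO (red) and ChREBPβ-KO mice (blue). Diamonds are the brightest probe of a gene and circles its other probes. In total ChREBP-KO mice, 15 of 21 probes passed, all lower, and 1 of 5 Pdk1 probes stayed near 0.

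The difference between both KO effects was tested for each gene as an interaction term. It passed for 2 of 10 members, Pdk1 and Pdha1, whose falls were larger in total ChREBP-KO mice, and for 23.2% of all genes. Pdk3 came next, with a difference of 0.43 (SE 0.16, adjusted p = 0.0613). For Mpc1, Mpc2, Pcx and Slc25a1 the difference did not pass, with values of 0.34, -0.05, 0.16 and 0.42. Their intervals reached 0.73, 0.27, 0.46 and 1.00, so for these genes neither equal effects nor differences of that size lay outside the error.

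WT mice of both lines were also compared, since they share a genotype at Mlxipl. Of the 10 members, 4 were lower in WT of the ChREBPβ line and 0 higher, against 45.9% of all genes called in either direction. Over all member probes, 11 of 21 were lower and 0 higher. These included the second probes of Pdha1 (-0.57, adjusted p = 0.000246) and Cs (-0.31, adjusted p = 0.0149), whose brightest probes did not pass. Pdk4 differed most, by -1.14 (SE 0.21, adjusted p = 7.42e-05), and WT of the ChREBPβ line had 45.2% of the level in the other WT group. Pdk2 differed by -0.48 (adjusted p = 0.00651), Mpc1 by -0.45 (adjusted p = 0.00577) and Pdk1 by -0.37 (adjusted p = 0.00762). These directions were not stable, since Pdk2 turned to 0.62 (adjusted p = 0.00197) and Mpc1 to 0.44 (adjusted p = 0.0477) with the thermogenic score as a covariate, which was chosen after seeing the data, and Pdk1 turned to 0.14 with the lymphocyte score. Pdk4 was at 0.000308 with the thermogenic score, and it was the member that passed with slide as a fixed block. The WT groups also differed in 15 of 15 lymphocyte and 8 of 8 thermogenic markers, all lower in the ChREBPβ line, and line and tissue mix cannot be told apart in this comparison. Levels in total ChREBP-KO mice were also set against the other line, as values without a test. The mean of Pdk1 in total ChREBP-KO was 1.71 below that in WT of the ChREBPβ line on the log2 scale, that of Pdha1 1.28 below and that of Slc25a1 1.19 below, whereas Mpc1 was 0.27 below, Mpc2 0.13 below and Pdk4 0.88 above. For the remaining members this difference was -0.62 for Pdk3, -0.60 for Pcx, 0.64 for Pdk2 and 0.14 for Cs.

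Scores of several cell types moved with the total ChREBP-KO comparison, and the fit was repeated with the muscle, lymphocyte or thermogenic score as a covariate. The adipocyte and macrophage scores were not used as covariates, and their part in these falls was not tested. Pdk1 and Pdha1 passed in the 3 fits, at -2.08 and -1.32 with the muscle score, -1.81 and -1.44 with the lymphocyte score, and -1.95 and -1.02 with the thermogenic score. Slc25a1 passed with the muscle and lymphocyte scores (-1.30 and -1.35) but not with the thermogenic score (-0.55, adjusted p = 0.0858). With the thermogenic score, Mpc1 (-0.04), Mpc2 (0.11) and Pcx (-0.25) also lost their call, and Pdk2 (1.00, adjusted p = 8.46e-07) and Cs (0.45, adjusted p = 0.00412) passed as higher. Pdk3 lost its call with the lymphocyte score (-0.09, adjusted p = 0.725). The thermogenic scores of WT and KO in this line met at a single array each, WT replicate 1 (11.67) and KO replicate 7 (11.76), so that score and genotype are close to confounded. The lymphocyte score has a similar limit, since its overlap rested on WT replicate 4 (10.63) and KO replicates 3 (10.94) and 8 (10.71). Whether the mix of cells takes part in these falls was not tested beyond these fits.

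**Figure D4:**
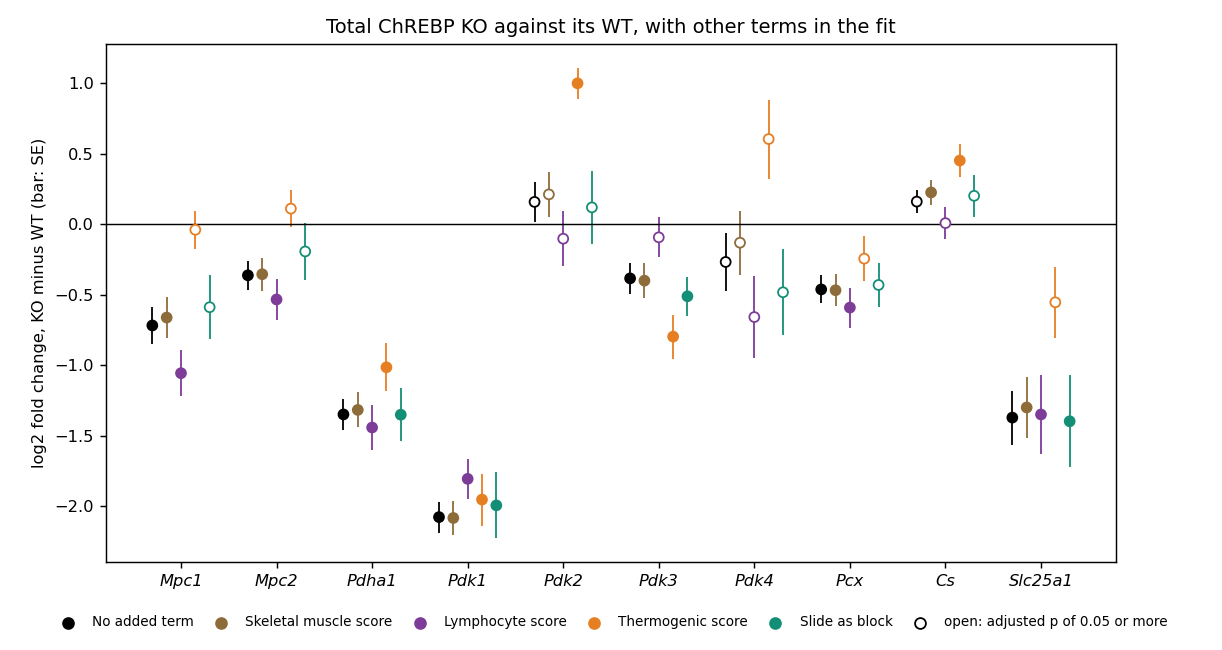
Log2 fold change (± SE) of each member in total ChREBP-KO mice with no added term, with the muscle, lymphocyte or thermogenic score as a covariate, and with slide as a fixed block. WT and KO of this line shared no slide, so the slide fit links them only through the ChREBPβ line. Filled points passed an adjusted p of 0.05. Pdk1 and Pdha1 are filled in all 5 fits, whereas Mpc1, Mpc2 and Pcx lie nearer to 0 with the thermogenic score than with no added term.

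Arrays had been washed in 4 batches named in the labels, and both groups of the total line were present in each. Within batches, total ChREBP-KO minus WT was between -2.26 and -1.80 for Pdk1, between -1.58 and -1.20 for Pdha1 and between -1.85 and -1.01 for Slc25a1. It was below 0 in each batch also for Mpc1 (-1.01 to -0.53), Pcx (-0.77 to -0.32) and Mpc2 (-0.57 to -0.12). Pdk3 was lower in 3 batches and higher by 0.37 in batch 1, which held 1 WT array. In the ChREBPβ line, 3 batches held both groups, and KO minus WT for Slc25a1 was -1.40, -0.35 and -1.18 in them.

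The partners of Pdha1 in the pyruvate dehydrogenase complex were divided. Of 7 other genes of the complex and its phosphatases, 2 were lower in total ChREBP-KO mice and 2 higher, where 20.1% of all genes were lower and 25.8% higher, and their median was 0.10. Pdhb, the other E1 subunit, fell by 0.94 on the log2 scale (SE 0.09, adjusted p = 1.06e-08), from a WT range of 16.12 to 16.66 to a KO range of 15.30 to 15.68. Dlat, the E2 subunit, fell by 0.90 (SE 0.13, adjusted p = 7.85e-06). Pdpr, which regulates the phosphatase, rose by 0.59 (SE 0.09) and the phosphatase gene Pdp1 by 0.24 (SE 0.07, adjusted p = 0.00793). In ChREBPβ-KO mice, 0 of 7 passed, with Dlat at -0.65 (SE 0.15, adjusted p = 0.136) and Pdhb at -0.35 (SE 0.10, adjusted p = 0.295). Between the WT groups, 1 of 7 was higher in the ChREBPβ line and 2 were lower. The WT differences were 0.68 for Pdp1, 0.01 for Pdpr, -0.18 for Pdhb and -0.50 for Dlat.

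Genes that use the exported citrate or return its carbon as pyruvate went both ways in total ChREBP-KO mice, with 5 of 8 higher and 2 lower and a median of 0.34, beside 25.8% and 20.1% of all genes. Acly, the ATP citrate lyase that cleaves citrate in the cytosol, fell by 2.29 (SE 0.09, adjusted p = 4.13e-15), from 18.10 to 18.35 in WT to 15.70 to 16.18 in KO. Me1, the malic enzyme that turns malate to pyruvate, fell by 1.11 (SE 0.12, adjusted p = 8.50e-08). The largest rises were in the cytosolic enzymes Idh1 (0.79, SE 0.09) and Aco1 (0.78, SE 0.10), which handle isocitrate. In ChREBPβ-KO mice Acly was at -0.24 (SE 0.10, adjusted p = 0.556) and 0 of 8 passed. Between the WT groups, 2 of 8 were higher in the ChREBPβ line and 1 was lower. The WT differences were 0.33 for Aco1, 0.25 for Idh1, -0.10 for Acly and -0.39 for Me1.

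Exchange of pyruvate with lactate and alanine was read by 8 genes of a list of 9, of which 3 were higher and 2 lower in total ChREBP-KO mice with a median of 0.07, beside 25.8% and 20.1% of all genes. In total ChREBP-KO mice, Slc16a1, a carrier of lactate and pyruvate across the plasma membrane, fell by 0.82 (SE 0.14, adjusted p = 3.24e-05), and Ldha, a lactate dehydrogenase subunit, fell by 0.50 (SE 0.06, adjusted p = 6.43e-07). Gpt2, the mitochondrial alanine transaminase, rose by 1.85 (SE 0.13, adjusted p = 2.01e-11) and Slc16a7, another monocarboxylate carrier, by 1.28 (SE 0.19, adjusted p = 8.16e-06). Gpt, the cytosolic transaminase, rose by 1.12 (SE 0.09, adjusted p = 6.55e-10). In ChREBPβ-KO mice, 0 of 8 passed. WT of the ChREBPβ line also differed from WT of the total line, with 3 of 8 genes higher and 3 lower. The values were 1.11 for Slc16a7, 0.93 for Gpt2, 0.74 for Gpt, 0.07 for Ldha and -0.69 for Slc16a1. The fits with cell type scores were read for the members only. The part of line or tissue mix in the changes of these other genes was not tested.

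Of 16 other genes of the citric acid cycle, 5 were higher in total ChREBP-KO mice, 1 was lower and 10 did not pass, with a median of 0.13 against 0.05 over all genes, of which 25.8% were called higher and 20.1% lower. The largest rises were in Idh2 (0.59, SE 0.09) and Suclg2 (0.55, SE 0.12), and Sucla2 fell by 0.44 (SE 0.13, adjusted p = 0.00641). Of 8 genes encoding known regulators of Pdk genes, 5 were higher and 0 lower, beside the same 25.8% and 20.1% of all genes, and their median was 0.27. Ppara, a nuclear receptor that responds to fatty acids, rose by 1.03 (SE 0.17, adjusted p = 3.90e-05), and Pparg, the nuclear receptor of adipocyte differentiation, by 0.47 (SE 0.08, adjusted p = 6.81e-05). In ChREBPβ-KO mice 0 of 16 and 0 of 8 passed in these lists. Between the WT groups, 2 of 16 cycle genes were higher in the ChREBPβ line and 6 lower. Of the 8 regulators, 2 were higher there and 5 lower. The WT differences were 0.57 for Idh2, 0.21 for Suclg2, -0.49 for Sucla2, 0.49 for Pparg and -0.67 for Ppara.

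**Figure D5:**
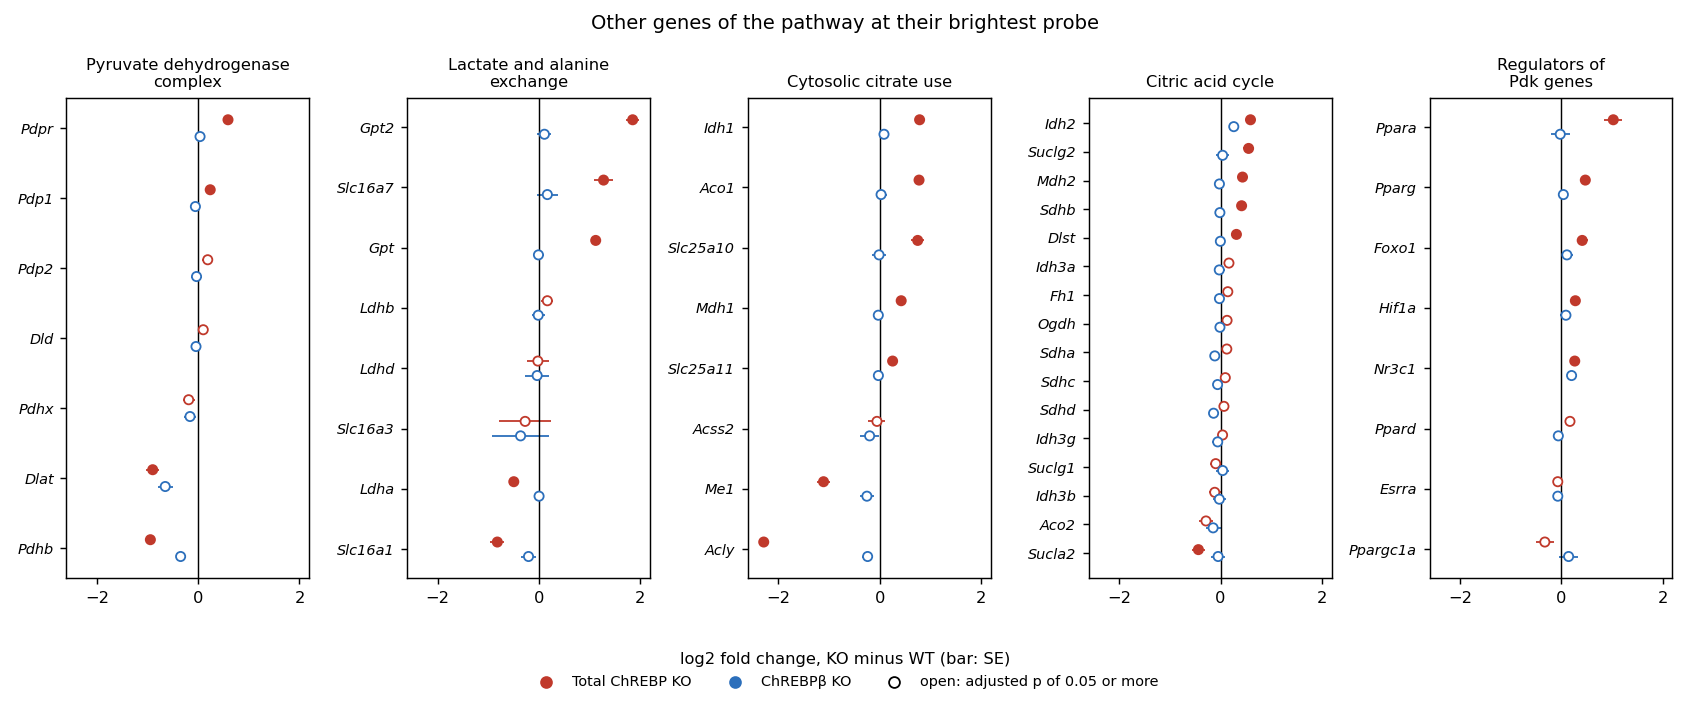
Log2 fold change (± SE) of the other genes of the pathway at their brightest probe, in 5 lists, in total ChREBP-KO (red) and ChREBPβ-KO mice (blue). Filled points passed an adjusted p of 0.05. Acly, Me1, Pdhb, Dlat and Slc16a1 lie farthest to the left in total ChREBP-KO mice, and no blue point is filled.

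Likeness of pattern was measured as Pearson's r with each of 17303 genes over the 26 arrays, which share groups and tissue mix, and is given as a description. The closest genes to Pdk1 were Sbk1 (r = 0.986), Slc2a5 (0.978) and Eno1 (0.978), and those to Pdha1 were Ank (0.979), Gbe1 (0.979) and Dixdc1 (0.976). Slc25a1 was closest to Sh2b2 (0.944), Mapk8ip1 (0.942) and Nrtn (0.942), and after subtracting the group means its r with Nrtn was 0.957. For the carriers, the closest genes were Tmem79 (0.931), 2310069G16Rik (0.926) and Gpi1 (0.926) to Mpc1, and Emc6 (0.944), Pgd (0.937) and Chchd10 (0.925) to Mpc2.

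For the kinases without a call and for Cs, the closest genes were others. Pdk2 was closest to Cox8b (0.955), which is in the thermogenic list, Uqcr10 (0.944) and Pank1 (0.942). The closest genes were Ndufa1 (0.935), Zfp493 (0.922) and Retsat (0.912) to Pdk4, and Vdac2 (0.890), Endog (0.885) and Ndufs3 (0.883) to Cs. Pcx was closest to Ppp2r1b (0.920), Gm6277 (0.906) and Nat8l (0.905), and Pdk3 to Exoc1 (0.928), Klf8 (0.918) and Tbrg1 (0.911).

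Among the members themselves, the highest r over 26 arrays was between Pdk1 and Pdha1 (0.954), followed by Mpc1 and Mpc2 (0.904), the subunits of 1 carrier. With the group means subtracted, r was 0.559 for the first pair and 0.843 for the second. Pdk2 and Pdk3 ran opposite to each other, with r = -0.826 over all arrays and -0.659 within groups. Pdk2, which did not pass in either KO, had an r within groups of 0.845 with Mpc1 and 0.800 with Mpc2.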

How the data were processed

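RNA of inguinal SCWAT from 26 mice was measured on 1-colour arrays. The authors extracted spot intensity values with Agilent Feature Extraction 10.10.1.1, and these deposited files hold intensity on a linear scale. A second file, a log2 table that the authors made by quality filter, quantile normalization and the median of replicate probes, served as an alternative. Values were recomputed from the median pixel intensity without background subtraction. Probes had to be found, positive and well above background on at least 21 arrays or on 75% of the arrays of 1 group. Spots with an outlier call were removed, which left 97 probe values missing, none of them of a member. Replicate spots were resolved by their median, values were put on the log2 scale and arrays were quantile normalized. This order came closest to the deposited table, with r of at least 0.999998 per array over 38499 shared probes. The filter left 38832 probes.

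One model with a mean per group was fitted to all arrays with limma 3.58.1 in R 4.3.3, leaving 22 residual degrees of freedom. Benjamini-Hochberg adjustment ran over all probes, with calls at 0.05, and a gene was read at its brightest probe. All adjusted p-values are from limma, and exact permutation tests were two-sided over the arrays of 1 line. Because the labels do not give litters, p-values measure the spread between single mice. The tests were checked on simulated data in which probes varied independently. Such data lack the tissue mix, batches and slides of these arrays, so they cannot vouch for the calls made here. Groups came from the sample titles. Probe positions are those of the array files (mm9), and no exon annotation of that build was used. The members and gene lists were chosen with earlier results of these data known. Named were all members, the 2 largest called rises and falls of each list in total ChREBP-KO mice, and the 3 genes closest to each member by r. Remaining genes that the text names were chosen after their values were seen. Further alternatives changed the scaling, the background correction, the filter, the outlier spots, the arrays in the fit, the probe for a gene, wash batch, slide, replicate number, array weights and cell type scores, or left out single arrays. The number of arrays limits the precision.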

Additional observations from a re-analysis of the deposited data

Results flagged for a closer look

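Pdk1 and Pdha1 had KO effects that differed between the lines, by 1.76 and 1.08 on the log2 scale (interaction term, ChREBPβ effect minus total effect). Single arrays stood apart in 2 of 40 groups of values checked with Dixon's test at the 95% level, and chance alone flags about 1 in 20 groups. Pdk2 was highest on total ChREBP-KO replicate 7, at 11.99 against 11.55 on the next array, and this gap was 0.601 of the range of the group. The same array had the highest skeletal muscle score of all (13.43), whose part in this value was not tested. Mpc1 was lowest on ChREBPβ-KO replicate 6, at 15.42 against 15.75 on the next array, a gap of 0.824 of the range.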

How the results depend on the processing

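In total ChREBP-KO mice, Pdk1 and Pdha1 kept their call in all 18 alternatives and all 26 fits that left out 1 array. WT and KO of the total line shared no slide, so the fixed slide block sets them against each other only through the ChREBPβ line. With slide as a fixed block 4 members passed (Mpc1, Mpc2 and Pcx did not), and 4 passed without the arrays of a muscle score above 10, which kept 2 of 7 KO and 5 of 7 WT arrays and was chosen after seeing the data. The thermogenic score as a covariate, also chosen after seeing the data, left 3 members lower and 2 higher and turned Mpc2 to 0.11. Leaving out single arrays gave 7 to 8 calls in total ChREBP-KO, 0 to 1 in ChREBPβ-KO, 2 to 3 for the difference between both effects and 4 to 6 between the WT groups. The difference between both effects passed for 1 member with slide as a fixed block, for 6 with the thermogenic score and for 1 without the muscle-rich arrays. Between the WT groups 1 member passed with the fixed slide block and 2 with lymphocyte and muscle scores together. In that comparison Pdk1 turned to 0.14 with the lymphocyte score and to 0.14 with both scores, and the thermogenic score turned Pdk2 to 0.62, Pdk4 to 0.000308, Mpc1 to 0.44 and Slc25a1 to 0.89. The cause of these changes was not tested. Same-numbered KO and WT arrays had deviations from their group means correlated between -0.35 and 0.51. The labels do not say whether equal numbers mark paired mice. These correlations cannot decide it, since arrays of unequal number were not compared. With a replicate block 6 members passed in total ChREBP-KO mice (Pdk3 at -0.37, adjusted p = 0.0555, did not), 0 in ChREBPβ-KO mice and 2 for the difference. No paired analysis was possible between the WT groups because they come from different lines. Over all probes, the 17667 calls in total ChREBP-KO mice became 8432 with the fixed slide block, 5351 with the lymphocyte score, 4965 with lymphocyte and muscle scores and 11000 without the muscle-rich arrays, and the 15 calls in ChREBPβ-KO mice ranged from 0 with the fixed slide block to 60 with array weights. The 8755 calls for the difference ranged from 616 with the fixed slide block to 11220 with array weights, and the 17644 between the WT groups fell to 1320 with lymphocyte and muscle scores. With the processed signal scaled to the 75th percentile, the total ChREBP-KO change was -0.90 for Mpc1, -0.61 for Pcx and 0.02 for Cs.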
